A study of Mus musculus with 3 samples.

Results

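The 41 genes described here are a list of transcripts of the dividing cell, taken from the 32285 genes counted in every library by their symbols. They fall into 25 mitosis genes (the M genes), whose products condense, carry and part the chromosomes, 15 replication genes (the S genes), whose products copy the DNA, and Stmn1, a microtubule-destabilising protein that was kept apart. They were followed in the knee synovium, the lining of the joint, and the infrapatellar fat pad beside it, within 4 kinds of cell set by marker UMIs (unique molecular identifiers, 1 per captured RNA molecule). Fibroblasts had at least 1 Pdgfra UMI and none of Ptprc or Cdh5, and endothelium had at least 1 Cdh5 UMI and no Ptprc. Mural cells, the pericytes and smooth muscle of vessel walls, had at least 1 Notch3 UMI and none of Pdgfra, Ptprc or Cdh5, and macrophages had at least 3 C1qa UMIs.

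The study sampled the joint through experimental osteoarthritis by droplet-based 10x Genomics single-cell RNA sequencing in 3 libraries. All mice carried the genotype given as wt. Controls were taken at 2 months of age, and the others had destabilisation of the medial meniscus (DMM), an operation on a knee ligament that leads to osteoarthritis, at 2 months of age, with harvest 1 week or 2 months later, so that the last group was also older. Each group was 1 library of live-sorted cells from the pooled tissue of 5 to 10 mice, taken from the second step of a trypsin and collagenase digestion, and whether controls had a sham operation, and the sex and strain of the mice, is not given in the sources used here. With 1 library a group no test between groups was possible. All intervals below are 95% intervals (Poisson for levels, Clopper-Pearson for shares, conditional binomial for ratios). They reflect only the number of molecules or cells counted, with no part for variation between mice. Intervals of UMI sums and of their ratios also leave out variation between cells. They are too narrow where few cells hold most of the UMIs.

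A dividing cell runs through its genes in order. Licensing factors and nucleotide-making enzymes are transcribed by E2F factors around the start of replication, and the cyclins, kinases and spindle proteins of mitosis follow later, under a repressor complex that is replaced by an activator as the cell nears division. In an adult joint most fibroblasts, vessel cells and resident macrophages rest outside the cycle, and wounding is known to draw fibroblasts and vessel cells into it.

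The timing of such genes is written in short promoter motifs, and 5 upstream runs are shown because they carry the S and M patterns most plainly. The runs are from RefSeq on build GRCm38.p6, read on the gene's own strand and ending at or shortly before the transcript start, without bases that GENCODE M21 places in an exon. Capitals mark the CHR motif of the M genes (TTTGAA or TTCGAA), the E2F motif (TTTCCCGC, TTTCGCGC, TTTGGCGC or TTTGCCGC) and the CCAAT box on either strand, where adjoining or overlapping matches run together. Mki67 lies at chr7:135716380-135716629 (minus strand), Top2a at chr11:99024190-99024439 (minus strand), Cdk1 at chr10:69352939-69353162 (minus strand), Mcm5 at chr8:75109259-75109508 (plus strand) and Mcm6 at chr1:128359706-128359955 (minus strand).
Mki67: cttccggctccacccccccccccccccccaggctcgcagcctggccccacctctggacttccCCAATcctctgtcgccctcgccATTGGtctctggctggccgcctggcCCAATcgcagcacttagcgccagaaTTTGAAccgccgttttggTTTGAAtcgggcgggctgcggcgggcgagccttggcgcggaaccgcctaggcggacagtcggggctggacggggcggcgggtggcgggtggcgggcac
Top2a: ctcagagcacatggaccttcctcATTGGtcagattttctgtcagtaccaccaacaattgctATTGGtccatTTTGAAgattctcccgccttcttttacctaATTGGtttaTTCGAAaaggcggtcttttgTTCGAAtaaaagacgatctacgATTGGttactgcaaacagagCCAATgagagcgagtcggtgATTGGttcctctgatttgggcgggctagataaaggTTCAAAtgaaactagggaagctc
Cdk1: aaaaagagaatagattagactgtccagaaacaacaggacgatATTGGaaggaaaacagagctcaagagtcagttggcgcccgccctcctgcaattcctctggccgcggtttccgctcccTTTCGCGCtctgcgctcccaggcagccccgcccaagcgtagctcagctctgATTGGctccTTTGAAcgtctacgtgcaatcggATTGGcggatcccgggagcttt
Mcm5: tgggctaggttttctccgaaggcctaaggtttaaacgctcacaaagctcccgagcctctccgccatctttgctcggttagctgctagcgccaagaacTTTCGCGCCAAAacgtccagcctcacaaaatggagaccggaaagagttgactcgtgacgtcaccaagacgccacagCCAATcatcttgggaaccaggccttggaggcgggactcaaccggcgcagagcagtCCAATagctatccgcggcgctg
Mcm6: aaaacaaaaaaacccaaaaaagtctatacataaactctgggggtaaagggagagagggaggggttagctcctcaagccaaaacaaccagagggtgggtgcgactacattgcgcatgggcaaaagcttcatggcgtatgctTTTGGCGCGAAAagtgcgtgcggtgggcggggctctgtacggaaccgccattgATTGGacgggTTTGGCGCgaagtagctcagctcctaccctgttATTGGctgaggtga

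The upstream run of Mki67 held 2 CHR motifs and 3 CCAAT boxes, that of Top2a held 4 and 6, and neither held an E2F motif. In Mcm5 and Mcm6, both subunits of the replicative helicase, the matches were E2F motifs and CCAAT boxes, with no CHR. Cdk1 had both kinds, and it was the only M gene with an E2F match.

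The same division ran through the list. Over windows of 250 bases before to 50 after each start, 17 of 22 M genes in the table held a CHR motif (77.3%), against 3 of 14 S genes (21.4%) and 21.7% of all 27025 genes in the table. An E2F motif was found in 6 of 14 S genes (42.9%), in 1 of 22 M genes (4.55%) and in 2.61% of all genes. The CCAAT box was common to both sets, with 19 of 22 M genes and 10 of 14 S genes, against 41.1% of all genes. GC content had a median of 57.7% over M promoters, 57.3% over S promoters and 52.7% over all. Among all promoters with a GC content in the middle 50% of the members', CHR stood at 14.6% and E2F at 3.30%. The promoter window of Pcna held 1 CCAAT box and neither of the other motifs. Aurkb, Ccna2, Tpx2, Mcm4 and Stmn1 were not matched. A match is a stretch of letters and not a shown binding site.

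The libraries held 9003, 13986 and 10799 barcodes with 96782789, 179561680 and 159333121 UMIs (control, 1 week and 2 months, the order kept below), of which 8099, 12316 and 9782 passed with 500 or more genes and a mitochondrial share of 10% or less. Fibroblasts numbered 3781, 4748 and 5317, endothelium 1270, 1784 and 1157, mural cells 694, 711 and 423, and macrophages 1101, 1969 and 894. Median UMIs per cell were lowest in the control for every gate, at 13153 against 16492 and 16085 in fibroblasts. Each gate's own marker sum was highest in that gate. The 6 mural markers summed to 20736, 10852 and 17181 CPM (a gene's share of all UMIs of the gate, on the usual scale) in mural cells and at most 440.6 CPM in fibroblasts. The 6 endothelial markers summed to 2795, 3437 and 3613 CPM in endothelium and at most 15.3 CPM in fibroblasts. Other types' RNA moved too, with 6 fibroblast markers at 2738, 14424 and 4777 CPM in mural cells and at 7475, 15981 and 6389 CPM in endothelium, and 5 neutrophil markers at 80.4, 717 and 4449 CPM in macrophages. The fibroblast sum thus exceeded the endothelial sum in the endothelial gate of every library, and the mural sum in the mural gate at 1 week. In macrophages the fibroblast sum was 3789, 8821 and 4496 CPM. Between 21 and 30 barcodes occurred in each pair of libraries, and 84, 51 and 32 cells met more than 1 gate. Of the macrophages, 133, 221 and 126 had a Pdgfra UMI.

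In fibroblasts 1 week after DMM, 35 of the 41 genes were at least 2-fold higher than in the control, against 11.6% of the 14582 genes with at least 50 UMIs over both sums. All 25 M genes were among them, 9 of 15 S genes, and Stmn1, and no member was 2-fold lower, as 10.6% of genes were. The median ratio was 7.79 over the M genes (4.28 to 11.35) and 2.15 over the S genes (1.08 to 10.2), where the median of all genes was 1.02. Levels here are 3' UMI counts with no length correction, and ratios are within a gene.

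The cyclins and the kinase they drive were among the members with high ratios. Cdk1, the kinase that starts mitosis, stood at 3.50, 38.9 and 5.51 CPM, 11.1-fold higher at 1 week (9.60 to 12.9). Ccnb2, one of its B-type cyclins, was at 2.89, 32.0 and 5.26 CPM, an 11.1-fold difference, and Ccnb1 at 2.37, 19.5 and 2.44 CPM, or 8.25-fold (6.89 to 9.95). Ccna2, the cyclin of late replication and early mitosis, was at 2.32, 18.0 and 3.23 CPM (7.79-fold). For each of these genes the 1-week library was high, and the 2-month level lay nearer to the control than to 1 week. Ccnb1 at 2 months was within counting error of the control (ratio 1.03, 0.826 to 1.29), while Cdk1, Ccnb2 and Ccna2 stood above it.

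Genes of the spindle and the chromosome surface were also highest at 1 week. Birc5, which encodes the chromosomal passenger survivin, had the largest ratio of any member in fibroblasts, at 4.54, 51.5 and 7.45 CPM (11.35-fold at 1 week, 9.98 to 12.96). The mitotic kinases were of low level: Plk1 stood at 0.833, 9.09 and 1.01 CPM, Aurkb at 1.02, 8.55 and 1.60 CPM and Aurka at 1.33, 8.60 and 1.63 CPM, with ratios of 10.9, 8.39 and 6.45. Ube2c, which tags mitotic cyclins for destruction, was at 7.499, 59.6 and 8.79 CPM (7.95-fold). Top2a, the enzyme that untangles replicated DNA, was at 7.30, 56.6 and 10.4 CPM (7.75-fold), and Cenpf, a kinetochore protein, at 10.0, 51.4 and 10.8 CPM (5.13-fold). Mki67, the coat of mitotic chromosomes used as the Ki-67 marker, was at 4.67, 40.9 and 9.01 CPM, 8.76-fold higher at 1 week (7.71 to 9.99). The kinetochore motor Cenpe differed 11.3-fold, and the smallest M ratios were those of Ect2, which places the cleavage furrow (4.56), and the spindle pole protein Aspm (4.28). The remaining 10 M genes lay between 5.13-fold (Sgo2a) and 10.2-fold (Bub1b).

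The replication genes were far less even. The helicase subunits Mcm2 to Mcm7, loaded on DNA as 1 ring, did not share 1 ratio: Mcm5 (2.54, 9.54 and 2.49 CPM) was 3.76-fold higher at 1 week and Mcm2 (2.22, 7.49 and 2.56 CPM) 3.37-fold, whereas Mcm4 (12.3, 16.4 and 11.3 CPM) was 1.34-fold higher (1.22 to 1.47). Mcm3 stood at 6.93, 14.9 and 5.69 CPM (2.15-fold), Mcm6 at 11.9, 21.7 and 10.55 CPM (1.82-fold) and Mcm7 at 10.9, 20.6 and 11.4 CPM (1.89-fold). The 2 subunits with the lowest control levels had the largest ratios.

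Of the enzymes that supply nucleotides, Tk1, thymidine kinase, differed most, with 2.59, 17.75 and 3.40 CPM (6.85-fold, 5.76 to 8.20). Rrm2, the cycle-dependent subunit of ribonucleotide reductase, was at 3.56, 13.9 and 3.37 CPM (3.91-fold). Its partner Rrm1 was at 16.3, 25.6 and 17.4 CPM (1.57-fold), and Tyms, thymidylate synthase, at 12.5, 30.8 and 11.97 CPM (2.47-fold). The 2 subunits of 1 enzyme therefore had ratios whose intervals did not meet (3.36 to 4.58 against 1.45 to 1.70).

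At the replication fork the contrast was widest. Pcna, the sliding clamp, was at 60.8, 65.6 and 67.4 CPM, a ratio of 1.08 at 1 week (1.03 to 1.13). Pclaf, the small factor that binds this clamp, was at 3.63, 37.0 and 4.22 CPM, 10.2-fold higher (8.82 to 11.8), so that the clamp and its partner were the lowest and the highest of the 15 S genes. Uhrf1, which keeps DNA methylation through replication, was at 1.52, 7.65 and 2.09 CPM (5.04-fold), the flap nuclease Fen1 at 3.94, 8.15 and 4.12 CPM (2.07-fold), and Ccne1, the cyclin of replication entry, at 3.89, 6.84 and 2.81 CPM (1.76-fold). Stmn1 was at 27.1, 119 and 32.4 CPM (4.39-fold, 4.15 to 4.64).

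**Figure D1:**
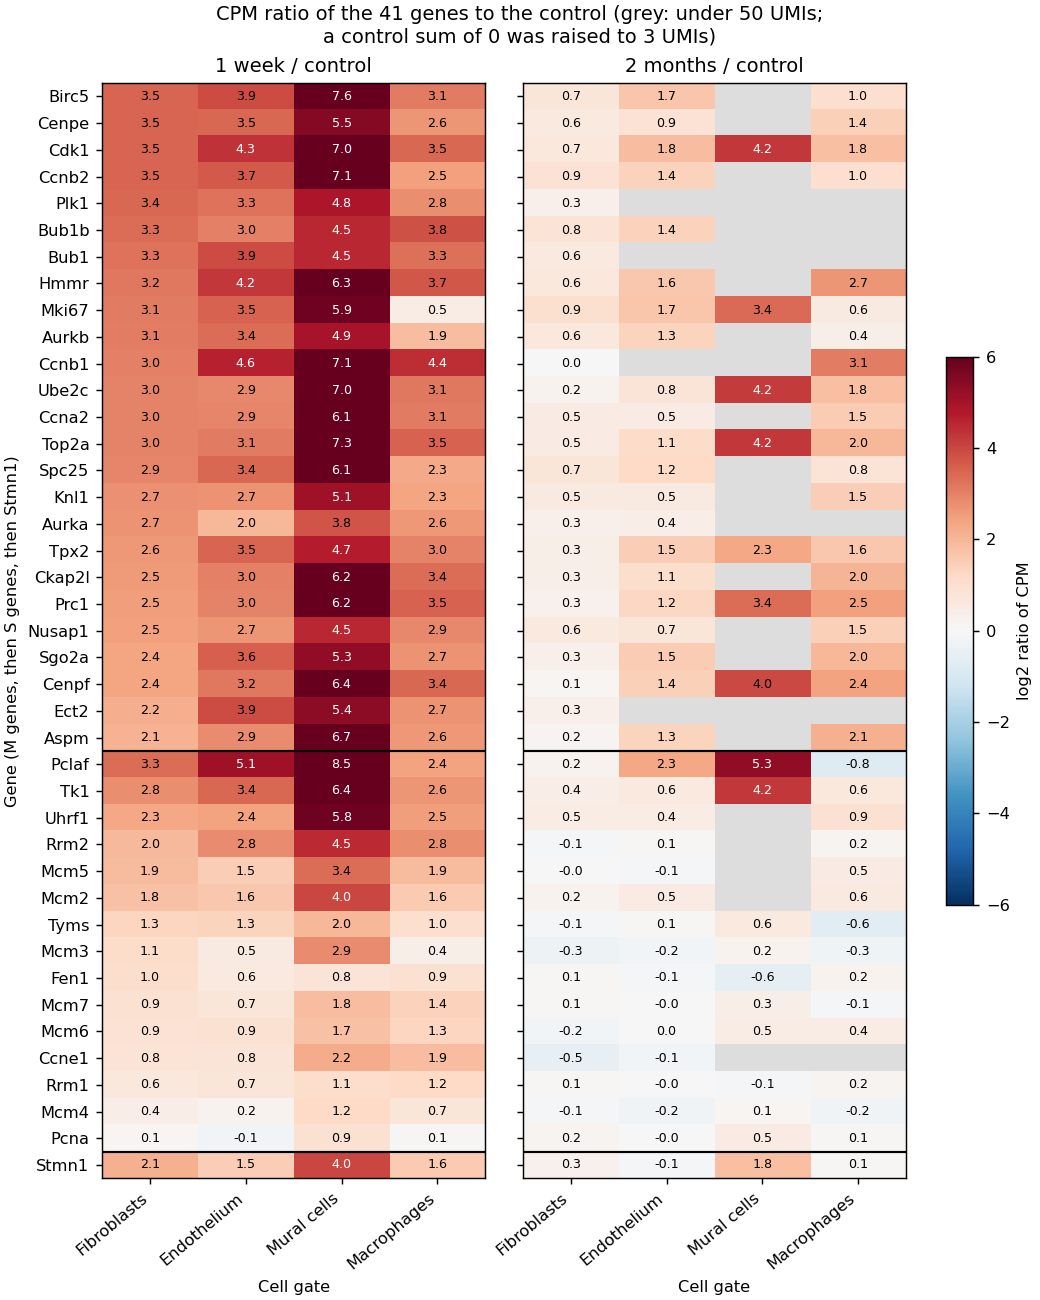
Log2 CPM ratios of the 41 genes (rows) to the control in the 4 cell gates (columns), at 1 week (left) and 2 months (right), with colours that reach their limit at 6 and grey for genes under 50 UMIs. At 1 week every M gene lies above 0 in every gate, while the Pcna ratio runs from 0.902 in endothelium to 1.91 in mural cells.

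The other 3 cell types showed the same order of the 2 sets at 1 week. In endothelium 33 of 41 members were at least 2-fold higher than in the control (25 of 25 M, 7 of 15 S), against 7.7% of genes. In mural cells it was 39 of 41 (25 M, 13 S), against 13.1%, and in macrophages 36 of 41 (24 M, 11 S), against 8.66%. No member was 2-fold lower in any of them, where 8.38, 11.7 and 9.96% of genes were. Median M ratios were 10.2 in endothelium, 67.35 in mural cells, with 5 genes at their lower bound, and 7.995 in macrophages, and median S ratios were 1.90, 4.61 and 2.57.

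In endothelium the largest M ratios were those of Ccnb1 (0.614, 15.03 and 1.99 CPM, 24.5-fold, 12.3 to 57.2), Cdk1 (1.92, 38.9 and 6.81 CPM, 20.3-fold) and Hmmr, a spindle assembly protein (1.304, 24.3 and 3.99 CPM, 18.6-fold). Aurka (3.93-fold) and Nusap1, a microtubule-bundling protein (6.35-fold), had the smallest. Among S genes Pclaf stood at 1.53, 52.2 and 7.70 CPM, 34.0-fold higher (21.95 to 55.9), followed by Tk1 (10.75-fold) and Rrm2 (7.08-fold). Pcna was at 122, 110 and 119.5 CPM, the only member below the control at 1 week in any gate (ratio 0.902, 0.848 to 0.960), and Mcm4 had the next smallest ratio, 1.16.

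Mural cells of the control held almost none of the M transcripts. The 25 M genes together had 86 UMIs in 694 control cells, 15.1 CPM, against 1123 CPM at 1 week and 167 CPM at 2 months. Ccna2, Bub1, Aurkb, Plk1 and Hmmr had no UMI in the control, and against a floor of 3 UMIs in the gate they were at least 67.35, 22.9, 30.65, 28.7 and 76.8-fold higher at 1 week. Birc5 (2 control UMIs, 70.0 CPM at 1 week) had a ratio of 199 with an interval of 54.8 to 1645, Top2a (0.880, 135 and 16.5 CPM) one of 154 (65.75 to 475) and Ccnb1 (1 control UMI) one of 139 (24.7 to 5524). The smallest ratio was that of Aurka, 13.5. The sizes rest on very few control molecules, while the direction was the same for all 25 genes.

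The S genes of mural cells spread further still. Pclaf, with 2 control UMIs, reached 125 CPM at 1 week (355-fold, 98.1 to 2937), Tk1, with 3, reached 43.8 CPM (82.9-fold, 28.2 to 404) and Uhrf1, with 2, reached 20.1 CPM (57.0-fold, 15.5 to 474). Fen1 (1.69-fold) and Pcna (60.2, 115 and 84.8 CPM, 1.91-fold) were lowest, and Stmn1 was at 15.1, 243.6 and 52.9 CPM (16.1-fold). Pcna was 1.69 to 2.17-fold in its interval here, above its intervals in the other 3 gates.

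The mural gate at 1 week also carried more fibroblast marker RNA, as given above, and Rgs5, a pericyte gene, stood at 629, 5223 and 2903 CPM while Myh11, a smooth muscle myosin, stood at 2793, 516 and 2543 CPM. Within the 1-week gate, cells with at least 3 M genes had the same Rgs5 level as cells with none (5245 and 5221 CPM) and less of the fibroblast collagen Col1a1 (2985 and 4760 CPM). Rgs5 in the fibroblast gate was 91.5 CPM. The part of the shift in pericyte and muscle transcripts in the M and S ratios was not tested.

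In macrophages the leading M genes were Ccnb1 (0.610, 13.2 and 5.17 CPM, 21.7-fold), the checkpoint kinase Bub1b (0.698, 9.72 and 2.92 CPM, 13.9-fold) and Hmmr (1.22, 16.2 and 7.67 CPM, 13.3-fold). Among S genes Rrm2 (6.80-fold), Tk1 (6.25-fold) and Uhrf1 (5.71-fold) led, and Pcna (125, 132 and 132 CPM, 1.06-fold) and Mcm3 (32.3, 41.2 and 26.9 CPM, 1.28-fold) were last. Pclaf was 5.33-fold higher (7.76, 41.4 and 4.59 CPM), well under its ratio in the other 3 gates. The smallest M ratio belonged to Mki67, at 55.7, 77.1 and 81.6 CPM (1.38-fold, 1.26 to 1.52), and Aurkb was next at 3.66. Markers of granulocyte precursors, which divide, were at 121, 1.61 and 5.75 CPM in this gate, highest in the control, and their part in the ratios was not tested.

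The next question was how many cells carried the M transcripts. Cells with at least 3 of the 25 M genes detected made up 0.635% of control fibroblasts (24 of 3781), 13.5% at 1 week (641 of 4748, 12.5 to 14.5%) and 1.58% at 2 months (84 of 5317). The shares were 0.866, 15.1 and 2.07% in endothelium, and 1.18, 10.8 and 3.13% in macrophages. In mural cells they were 0 of 694, which allows up to 0.530%, then 20.25% (17.4 to 23.4%) and 2.13%. Mature neutrophils, which do not divide, had 1 such cell of 37, 206 and 216 (2.70, 0.485 and 0.463%) at median depths of 2342, 1582 and 3142 UMIs. The neutrophils were far shallower than the gated cells, and only 1, 8 and 28 of them had 5000 UMIs; thinned to that depth, the 1-week share was 1 of 8 (12.5%, 0.316 to 52.65%). They therefore set no usable level of background for these shares.

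Deeper cells show more genes, and every cell was therefore also thinned to 5000 UMIs, leaving out 257, 52 and 256 shallower fibroblasts, 334, 113 and 85 endothelial cells, 115, 44 and 25 mural cells and 170, 119 and 73 macrophages. The shares became 0.426, 8.43 and 0.909% in fibroblasts, 0.321, 9.70 and 1.31% in endothelium, 0, 13.8 and 1.76% in mural cells, and 0.752, 6.70 and 1.22% in macrophages, in the same order of libraries. Mural cells had the highest share at 1 week by both counts.

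The cut at 3 genes divides a range and not 2 types of cell. Of the 1-week fibroblasts, 470 had 2 M genes, 189 had 3 or 4, 102 had 5 to 9 and 350 had 10 or more, so most of the cells past the cut lay far beyond it. In the control the numbers were 57, 7, 2 and 15, and at 2 months 137, 26, 16 and 42. Cells past the cut were deeper than cells with no M gene, with medians of 22607 and 15019 UMIs in 1-week fibroblasts, and at 1 week 12.96% of those in endothelium and 22.5% in macrophages were called as doublets, against 5.57 and 8.28% of the cells with none. Without the called cells the 1-week macrophage share was 9.35%, below its main counting interval (9.48 to 12.3%). The part of doublets in those shares was not tested.

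**Figure D2:**
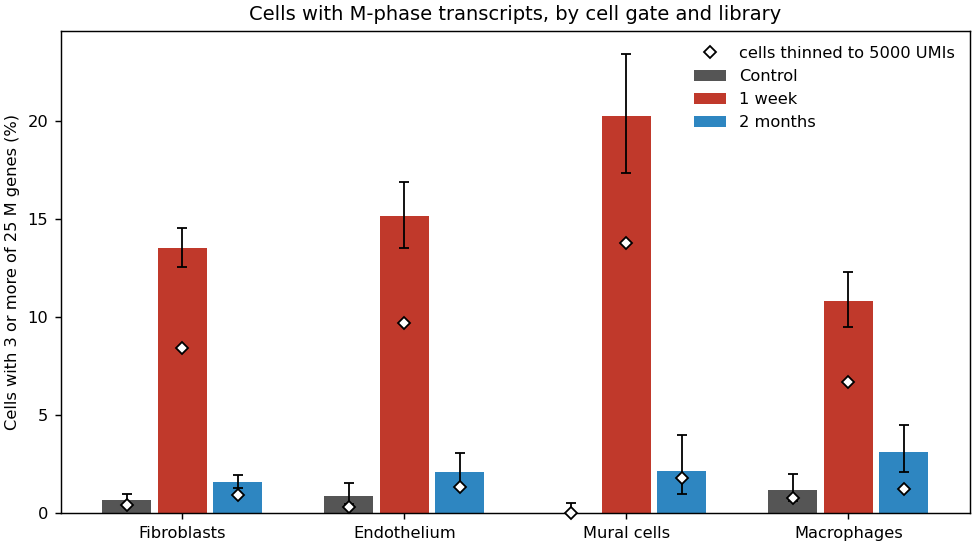
Percent of cells with 3 or more of the 25 M genes in each gate and library (bars, with exact 95% counting intervals), and the same after thinning each cell to 5000 UMIs (diamonds). The 1-week bars stand between 10.8 and 20.25% and all control bars at or under 1.18%.

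Setting the S genes against the M genes showed that the 2 sets did not differ by the same factor. Summed M levels in fibroblasts were 84.1, 628 and 115 CPM, 7.47-fold higher at 1 week (7.24 to 7.70), and summed S levels were 155, 304 and 161 CPM, 1.96-fold higher (1.91 to 2.00). The corresponding M and S ratios were 9.86 and 1.71 in endothelium, 74.2 and 4.17 in mural cells and 4.99 and 1.80 in macrophages. Of the 4544 M UMIs of control fibroblasts, 3848 lay in the 24 cells with 3 or more M genes. The intervals of the sums leave out this unevenness between cells. The share of such fibroblasts was 21.3-fold higher at 1 week, with a wider interval (14.2 to 33.4). Pcna, at the levels given above, was the largest single part of the control S sum in fibroblasts, endothelium and macrophages. It also had the smallest 1-week ratio of the S genes there. Sums without Pcna were not computed, and its part in the low summed S ratios was not tested. The S to M ratio was below 1 at 1 week in every gate, although with every cell given equal weight it was 1.02 in macrophages. It was 1.85, 0.484 and 1.40 in fibroblasts, 4.14, 0.715 and 1.78 in endothelium, 10.2, 0.573 and 1.35 in mural cells and 2.28, 0.818 and 0.982 in macrophages. Thinning or equal weight for every cell moved several of these values by over 1.5 times: the 2-month macrophage ratio was then 1.55 and 1.56, the 2-month fibroblast ratio 2.23 and 2.33, and the 2-month endothelial ratio 2.72 and 2.825. The control ratio was 2.90 and 2.835 in fibroblasts and, with equal weight, 6.635 in endothelium, and the mural M ratio of 74.2 was 47.8 and 42.8.

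**Figure D3:**
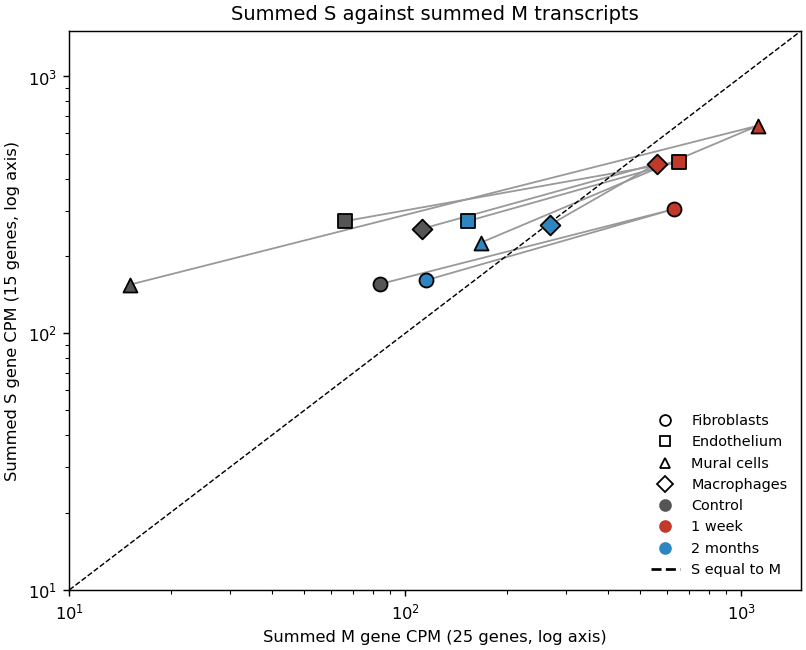
Summed CPM of the 15 S genes (vertical, log axis) against summed CPM of the 25 M genes (horizontal, log axis), 1 point per gate and library, with lines from each gate's 1-week point to its other 2. Points of the 1-week library lie below the dashed line of equal sums, and all control points lie above it.

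The S genes differed in how much of their signal lay in cells with M transcripts. In control fibroblasts 4.51% of Pcna UMIs, 4.76% of Ccne1 UMIs and 5.89% of Mcm4 UMIs lay in the 24 cells with 3 or more other M genes, while 88.8% of Pclaf UMIs and 86.4% of Tk1 UMIs did. At 1 week the M genes had between 91.6% (Sgo2a) and 98.1% (Hmmr) of their fibroblast UMIs in such cells, with Cdk1 apart at 80.6%. The S genes spread from Pcna (32.45%), Ccne1 (42.5%), Mcm4 (43.2%) and Mcm6 (44.65%) through Tyms (61.0%), Mcm5 (71.2%) and Rrm2 (77.1%) to Tk1 (89.9%) and Pclaf (95.35%). Pcna was lowest by this share in endothelium (36.9%), mural cells (51.0%) and macrophages (32.7%) as well.

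**Figure D4:**
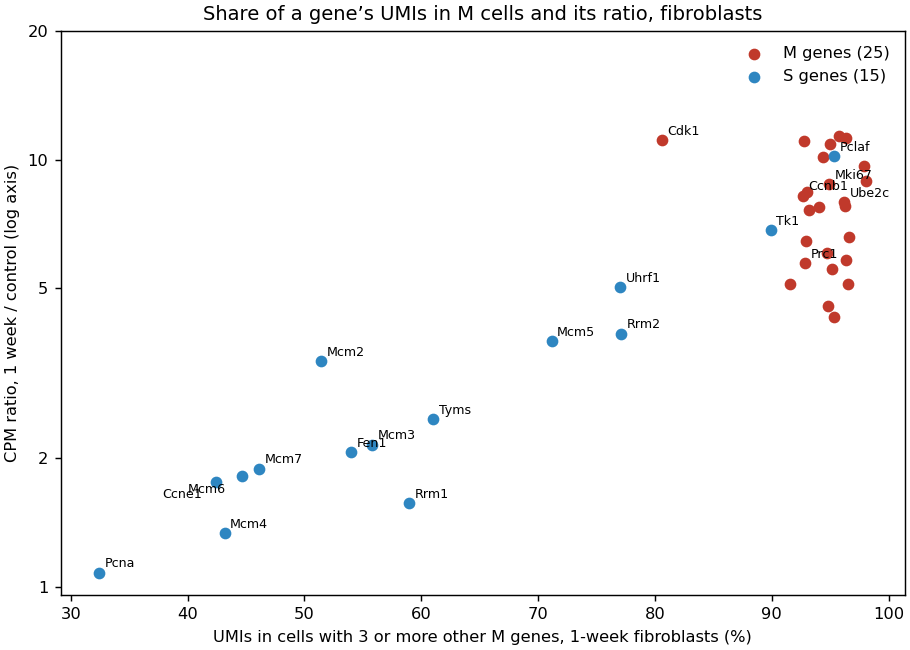
CPM ratio between 1 week and control in fibroblasts (vertical, log axis) against the percent of a gene's 1-week UMIs that lay in cells with 3 or more other M genes (horizontal), 1 point per gene. S genes run from Pcna at 32.45% to Pclaf at 95.35%, and M genes other than Cdk1 lie at 91.6% or more.

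Cells with no M transcript were then compared by themselves, which leaves out the cells that these 25 genes detect as dividing. The summed S level in such fibroblasts was 135, 145 and 133.5 CPM (ratio 1.07 at 1 week, 1.03 to 1.11), and the ratios at 1 week were 0.873 in endothelium and 0.992 in macrophages. Single genes still differed among these fibroblasts: Tk1 was 6.46-fold higher at 1 week (3.54 to 12.7, 68 against 13 UMIs), Pclaf 5.71-fold (3.29 to 10.5), Stmn1 2.27-fold (22.9 against 10.1 CPM), Rrm2 2.08-fold and Uhrf1 2.05-fold. Pcna stood at 0.898 of its control level (0.845 to 0.953). In macrophages with no M transcript Pclaf (6.82-fold, 1.66 to 60.2, 20 against 2 UMIs), Tk1 (3.41-fold), Mcm2 (2.58-fold) and Mcm5 (2.54-fold) were higher at 1 week. In endothelium without M transcripts Tyms was 1.57-fold higher (1.301 to 1.895), while Pcna was at 0.745 of the control (0.681 to 0.814).

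Within the cells past the cut, the summed M level was lower after DMM in fibroblasts and higher in macrophages. In endothelium it was higher at 2 months and little different at 1 week. The same M genes set the cut, so this level depends on how many of the cells lie just past it. Of the control cells past the cut, 15 of 24 fibroblasts, 3 of 11 endothelial cells and 5 of 13 macrophages had 10 or more M genes. The 24 control fibroblasts had 6040 CPM of M transcripts, and those at 1 week and 2 months had 3270 and 3343 CPM (ratios of 0.541 and 0.554 to the control). Top2a was at 556, 294 and 310 CPM, Cenpf at 807, 273 and 346 CPM, Mki67 at 315.5, 214 and 274 CPM and Stmn1 at 1450, 537 and 740.5 CPM in these cells. In macrophages the order was the other way, at 1808, 2800 and 3677 CPM in 13, 213 and 28 cells (1.55-fold higher at 1 week, 1.42 to 1.695, and 2.03-fold at 2 months). In endothelium the levels were 2322, 2534 and 3441 CPM in 11, 270 and 24 cells (1.09-fold, 1.01 to 1.19, and 1.48-fold). These intervals leave out variation between cells, and the endothelial control level rests on 11. The 1-week library thus had more cells past the cut in each gate, and in fibroblasts a lower M level within them than the control. Cells of 1 library share their mice, so these values describe the libraries.

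By set, 80.2% of the 1-week fibroblasts with at least 3 M genes also had at least 3 S genes (76.9 to 83.2%), and after thinning 58.1% did. Cells with 3 or more S genes and fewer M genes made up 96.7, 66.2 and 93.7% of the fibroblasts that passed in either set, and 83.9, 30.0 and 69.1% after thinning. The S count alone put 19.4, 37.3 and 24.7% of fibroblasts past 3 genes, which thinning reduced to 2.50, 8.52 and 2.59%. Pcna alone had a UMI in 51.9% of control fibroblasts.

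Mki67 in macrophages departed from the other M genes. A Mki67 UMI was present in 23.0% of control macrophages (253 of 1101), 20.01% at 1 week and 26.85% at 2 months, against 1.61% of control fibroblasts, 2.36% of control endothelium and 1.01% of control mural cells. Of the macrophages with it, 208 (82.2%), 155 (39.3%) and 170 (70.8%) had none of the other 24 M genes. In all macrophages without another M gene Mki67 stood at 53.3 (48.6 to 58.2), 26.8 and 52.7 CPM, while the next M gene there was at 1.77 (Tpx2), 6.21 (Top2a) and 2.13 CPM (Top2a). In matched cells of the fibroblast gate Mki67 was at 0.786, 2.30 and 0.595 CPM. Since 120, 54 and 89 of these macrophages held 2 or more Mki67 UMIs, the signal was not limited to single molecules per cell.

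Only 9.08% of control Mki67 UMIs in macrophages lay in cells with 3 or more other M genes, and 69.8% at 1 week and 34.5% at 2 months did, where fibroblasts had 79.8, 94.9 and 91.35%. Without Mki67, a comparison added after its values had been seen, the summed M ratio of macrophages was 8.57 at 1 week and 3.32 at 2 months (4.99 and 2.40 with it). Their S to M ratio was then 4.53, 0.948 and 1.41. The share of macrophages with 3 or more M genes was 0.908, 9.50 and 2.01% without it.

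**Figure D5:**
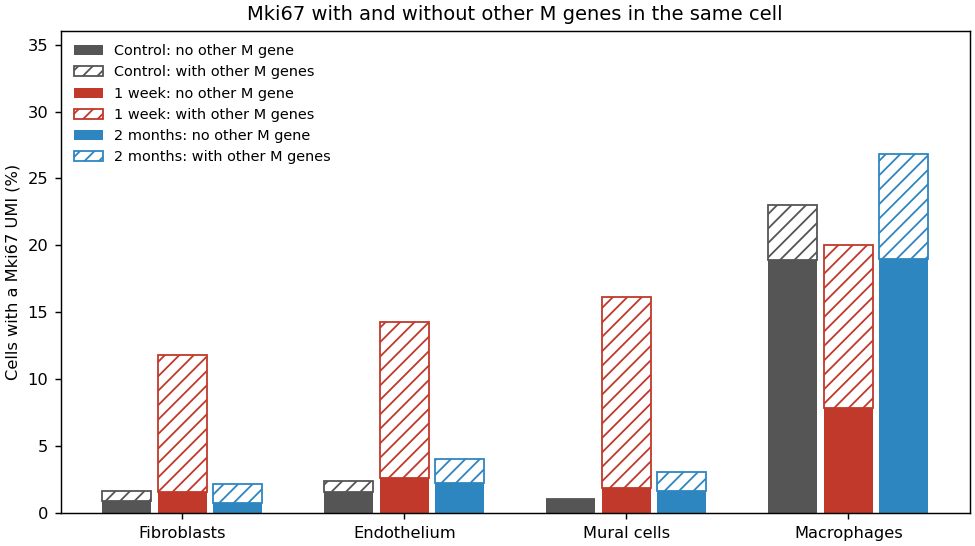
Percent of cells with a Mki67 UMI in each gate and library, split into cells with none of the other 24 M genes (filled) and cells with at least 1 of them (hatched). The macrophage bars stand at 23.0, 20.01 and 26.85%, and most of the control bar and of the 2-month bar is filled.

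Cdk1 showed a smaller departure in fibroblasts at 1 week. It was detected in 900 of 4748 cells (19.0%), more than any other M gene there, and 324 of these had no other M gene, against 76 of the 560 with Mki67. In fibroblasts without another M gene Cdk1 was at 0.249, 8.71 and 0.704 CPM. The 1-week median of the 24 M genes other than Mki67, Cdk1 among them, was 0.910 CPM. In 1-week endothelium, too, Cdk1 led the M genes of such cells at 7.99 CPM. It did not lead in the other gates at 1 week. There the M gene Prc1 led in mural cells (9.04 CPM), and Mki67 (26.8 CPM), then Top2a (6.21 CPM), in macrophages.

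At 2 months the members lay nearer to the control. In fibroblasts 0 of 41 members were at least 2-fold from the control in either direction, where 5.44% of genes were higher and 4.15% lower. All 25 M genes still stood above 1, from Ccnb1 (1.03) to Mki67 (1.93, 1.68 to 2.23), while 8 of 15 S genes did, and the summed M and S ratios were 1.37 and 1.03. Under the stricter cell filter (1000 genes, 5% mitochondrial), 1 member passed 2-fold. No member was 2-fold lower in endothelium, where 2.82% of genes were. Endothelium had 16 of 37 members with enough UMIs past 2-fold (15 of 21 M genes and Pclaf, 5.02-fold), against 3.72% of genes, and its M sum was 2.33-fold higher (66.0 and 154 CPM). Under stricter gates 7 members passed in endothelium.

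Macrophages had 17 of 35 members past 2-fold at 2 months, against 3.96% of genes (3.93% lower, with no member among them), all of them M genes, with Ccnb1 (8.47-fold) and Hmmr (6.28-fold) leading, whereas Pclaf was at 0.591 of the control. In mural cells it was 10 of the 18 members with enough UMIs (7 of 7 M genes, Pclaf, Tk1 and Stmn1), against 4.96% (3.39% lower, with no member among them), and the M sum was 11.05-fold higher (8.85 to 13.96). A minimum of no UMIs gave 32 of them and the stricter cell filter 6. The 2-month mural cells past the cut of 3 M genes numbered 9. Genes that passed the minimum only because they were high had to differ, so these counts are not shares of all 41.

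Against 1 week, the 2-month library was at least 2-fold lower for 36 of 41 members in fibroblasts (8.31% of genes), 33 in endothelium (5.21%), 40 in mural cells (7.79%) and 32 in macrophages (6.13%). The summed M level was 5.46, 4.24, 6.71 and 2.08-fold lower in these gates and the summed S level 1.89, 1.70, 2.86 and 1.73-fold. In fibroblasts Plk1 was 8.96-fold lower, Pclaf 8.76-fold and Ccnb1 8.02-fold, and Pcna was the only member not lower (ratio 1.03). Without Mki67 the M ratio of macrophages between 2 months and 1 week was 0.388. The 3 comparisons share their libraries and are not independent.

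Other genes of the cycle, from lists that are not part of the 41, were mostly higher at 1 week too. Of 48 further mitosis genes 43 were at least 2-fold higher in fibroblasts, 43 in endothelium, 42 of 44 with enough UMIs in mural cells and 38 of 46 in macrophages, against 11.6, 7.7, 13.1 and 8.66% of all genes, and none was 2-fold lower. Of the further replication genes it was 21 of 47, 25 of 46, 26 of 40 and 15 of 44, and 1 in endothelium was 2-fold lower. In fibroblasts the chromokinesin Kif4 (12.8-fold), the phosphatase Cdc25c (12.05-fold), Depdc1a and the kinase Melk (10.25-fold) had the largest ratios among mitosis genes, and the chromokinesin Kif22 was at 1.22. E2f8, a late E2F repressor, was 16.6-fold higher, followed by the repair genes Exo1 (8.08-fold) and Rad51ap1 (6.16-fold) and the helicase factor Cdc45 (5.63-fold). Pttg1, securin, was below the control in all 4 gates, at 48.5, 40.8 and 59.7 CPM in fibroblasts (ratio 0.840) and with ratios of 0.729, 0.611 and 0.936 in endothelium, mural cells and macrophages. The loading factor Cdc6 was at 0.647 of its control level in fibroblasts and the polymerase subunit Pold2 at 0.699.

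Of 20 genes that restrain the cycle, 3 were at least 2-fold higher and 2 lower in fibroblasts at 1 week, shares near those of all genes (11.6% higher, 10.6% lower), and their median ratio was 0.939. Cdkn1c, the p57 inhibitor, was at 53.1, 310 and 119.5 CPM, and Cdkn2a, which encodes p16 and p19Arf, at 2.19, 8.79 and 25.0 CPM. Cdkn1a, the p21 inhibitor, was at 578, 142 and 288 CPM (0.246 of the control at 1 week) and the antiproliferative Btg2 at 372, 182 and 271.5 CPM. Cdkn1a was also lower in endothelium (1066, 276 and 425 CPM) and macrophages (835, 415 and 366 CPM) and not in mural cells (ratio 1.13). Of 14 drivers of the first cycle phase, 4 were at least 2-fold higher and 2 lower in fibroblasts, with 8 above the control and a median ratio of 1.66. Among them Cdk6 was at 7.94, 38.8 and 45.5 CPM in fibroblasts, whereas Ccnd1 (51.2, 30.5 and 49.9 CPM) and Myc (101, 43.85 and 63.2 CPM) were lower at 1 week.

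These regulators differed between the 1-week cells with 3 or more M genes and those with none, a split made by the members themselves and given as a description. Ccnd1, cyclin D1, was at 70.9 CPM against 17.9 CPM in fibroblasts (3.95-fold), 276 against 146.5 CPM in endothelium, 174 against 55.9 CPM in mural cells and 153 against 52.3 CPM in macrophages. Cdkn1c was the other way in fibroblasts (104 against 393 CPM), endothelium (57.65 against 175 CPM) and mural cells (33.6 against 94.6 CPM), while in macrophages it was higher in the cells with M genes (67.8 against 52.95 CPM, 1.28-fold, 1.11 to 1.48). Cdkn1a was level in fibroblasts (152 against 140 CPM). Cdkn2a was 2.10-fold higher in the fibroblasts with M genes (13.7 against 6.53 CPM).

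Markers of cell state split as well. Among the 1-week fibroblasts, those with 3 or more M genes had more Acta2, smooth muscle actin (419 against 174.5 CPM). They had less Pi16, a marker of an adventitial progenitor state (11.35 against 69.8 CPM), and less of the collagenase Mmp13 (145 against 335 CPM). Mmp13 was found in 23.2 against 25.3% of cells. Of 2 genes of activated fibroblasts, Postn was lower (2020 against 2459 CPM) and Cthrc1 near level (1392 against 1349 CPM). At 2 months, with 84 cells past the cut, Acta2 (149 against 96.35 CPM) and Pi16 (96.2 against 323 CPM) differed the same way. Mmp13 was then within counting error (29.3 against 32.7 CPM, ratio 0.896, 0.715 to 1.11). Endothelial cells with M genes at 1 week had more Esm1, a tip cell gene (76.1 against 30.9 CPM), and less of the venule genes Selp (288 against 987 CPM) and Ackr1 (54.7 against 305 CPM). Prnd and Apln were also higher there (133 against 74.7 and 77.1 against 48.9 CPM), and Aplnr was level (228 against 240 CPM). The split did not hold for Selp, Ackr1 and Esm1 at 2 months, with 24 cells past the cut. There Selp was at 848 against 725 CPM, Ackr1 at 273 against 232 CPM and Esm1 at 49.45 against 49.39 CPM. Prnd (60.76 against 25.3 CPM) and Apln (128.6 against 35.98 CPM) were still higher in the endothelial cells with M genes. Aplnr was then higher in them too (183.7 against 111.5 CPM). Macrophages with M genes at 1 week had less of the antigen presentation genes H2-Ab1 (479 against 1630 CPM) and Cd74 (1439 against 4474 CPM), although 47.4 and 50.3% of cells held H2-Ab1. Mrc1 (262.5 against 492 CPM), Spp1 (933 against 1922 CPM), Gpnmb (76.5 against 220 CPM) and Ccr2 (132 against 232.5 CPM) were lower too by level. By detection, more of the cells with M genes held Spp1 (89.2 against 72.9%) and Gpnmb (35.2 against 30.85%). Ccr2 was near even (49.3 against 48.1%), and fewer held Mrc1 (71.8 against 76.1%). The macrophages with M genes were also deeper (medians of 17425 and 9089 UMIs), and 22.5% of them were called as doublets. Vsig4 (43.3 against 40.3 CPM) and Arg1 (19.4 against 18.1 CPM) were level. Mural cells with M genes at 1 week had less Myh11 (344 against 691 CPM) and Cnn1 (45.8 against 133 CPM), while Acta2 was near level (4428 against 4692 CPM).

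Some of the cells with M transcripts lay in none of the 4 gates. Over all passing cells 64, 1623 and 271 had at least 3 M genes, and 26.6, 22.4 and 47.6% of them were outside. At 1 week 354 of these 363 cells (97.5%) had a UMI of at least 3 of the 6 fibroblast markers. For at least 3 of the 4 leukocyte markers it was 198 (54.55%), and for at least 3 of the 5 neutrophil markers 53 (14.6%). The 6 fibroblast markers summed to 31746 CPM over all 1-week cells outside the gates, so passing this list does not set a cell's type. How many of all cells outside the gates passed each list was not computed. At 2 months 119 of 129 (92.25%) passed for leukocyte markers and 96 (74.4%) for fibroblast markers. For monocyte markers it was 94 (72.9%), for neutrophil markers 90 (69.8%) and for granulocyte precursor markers 54 (41.9%), so that many cells passed for several lists. Over all cells outside the gates the S to M ratio was 2.16, 0.657 and 0.677, so that it was below 1 at 2 months too.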

How the data were processed

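Single-cell 3' libraries of 1 control group and 2 groups after DMM were deposited as matrices of UMI counts per gene and cell barcode. The counts were made by the authors with Cell Ranger; per the file headers the version was 5.0.1 at 2 months and 5.0.0 otherwise, while the submitters' processing notes give 6.0.1 and name mm10. Barcodes with at least 500 genes and 10% or fewer mitochondrial UMIs were kept. Scanpy's Scrublet calls (scanpy 1.11.5) were kept in the main values and removed in an alternative. Gates were set on raw UMIs before any thinning. UMIs were summed per gate and library, and a difference was counted at 2-fold or more with at least 50 UMIs over both sums. A sum of 0 was raised to 3 UMIs. With 1 library a group no test was run, and sums of cells were not treated as replicates. Intervals were computed with scipy 1.17.1 and numpy 2.4.6 in Python 3.11.15, tables with pandas 2.3.3 and plots with matplotlib 3.10.9, and the scripts were tested on simulated data. Gene exons came from GENCODE M21. All 41 members were described. Beyond fibroblasts, the genes named were the 3 with the largest and the 2 with the smallest 1-week ratio of each set, and of other cycle lists some of the 4 largest and 2 smallest together with Cdkn1a, Cdkn2a, Cdkn1c, Ccnd1 and Myc. The members and lists were chosen with earlier results of these data known. Alternatives were doublet removal, a stricter cell filter, stricter gates, equal weight for every cell, thinning, another M cut, no UMI minimum and rescaling by the median ratio. Values without Mki67, and levels in cells with no other M gene, were added after seeing the data.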

Additional observations from a re-analysis of the deposited data

How the results depend on the processing

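The S to M ratio of 1-week macrophages, 0.818, lay on the other side of 1 with every cell given equal weight, a setting that gives no counting interval. Ratios of single members to the control were recomputed under 4 settings: doublet removal, the stricter cell filter, stricter gates and rescaling by the median ratio. Of 1142 such values, 1118 stayed within their main counting interval and 24 moved out of it. Single members were not compared under thinning or equal weight, which moved 9 and 10 of 12 summed M ratios. No paired analysis was possible because each group is 1 library, and for the same reason no library could be left out. Depth limits the control most: its mural sums hold 86 M UMIs, so the size of every mural ratio to the control is loose. The values that moved beyond their main counting interval, or counts that moved by over 1.5 times, follow, and the causes were not tested. Without the doublet calls, the S to M ratio was 1.78 (control) in fibroblasts, and 2.115 (control), 0.8526 (1 week) and 0.8939 (2 months) in macrophages. The percent of cells past the M cut was 9.354 (1 week) in macrophages. The summed M ratio was 7.169 (1 week to control) and 0.1886 (2 months to 1 week) in fibroblasts, and 4.304 (1 week to control) and 0.5717 (2 months to 1 week) in macrophages. With cells of 1000 or more genes and 5% or fewer mitochondrial UMIs, the S to M ratio was 0.4688 (1 week) and 1.302 (2 months) in fibroblasts, 1.698 (2 months) in endothelium, 1.009 (2 months) in mural cells, and 0.8716 (1 week) and 0.8074 (2 months) in macrophages. The number of members 2-fold higher was 1 (2 months to control) in fibroblasts, and 6 (2 months to control) in mural cells. The percent of cells past the M cut was 25.62 (1 week) in mural cells. The summed M ratio was 1.446 (2 months to control) and 0.1895 (2 months to 1 week) in fibroblasts, 15.17 (2 months to control) and 0.1978 (2 months to 1 week) in mural cells, and 4.682 (1 week to control), 2.925 (2 months to control) and 0.6246 (2 months to 1 week) in macrophages. With cells thinned to 5000 UMIs, the S to M ratio was 2.9 (control), 0.5632 (1 week) and 2.226 (2 months) in fibroblasts, 5.911 (control), 0.8519 (1 week) and 2.72 (2 months) in endothelium, 0.6288 (1 week) and 1.522 (2 months) in mural cells, and 2.625 (control), 0.983 (1 week) and 1.549 (2 months) in macrophages. The percent of cells past the M cut was 8.433 (1 week) and 0.9089 (2 months) in fibroblasts, 0.3205 (control), 9.695 (1 week) and 1.306 (2 months) in endothelium, 13.79 (1 week) in mural cells, and 6.703 (1 week) and 1.218 (2 months) in macrophages. The summed M ratio was 8.463 (1 week to control) and 0.161 (2 months to 1 week) in fibroblasts, 2.126 (2 months to control) and 0.2183 (2 months to 1 week) in endothelium, 47.76 (1 week to control) and 0.1886 (2 months to 1 week) in mural cells, and 3.91 (1 week to control), 1.702 (2 months to control) and 0.4353 (2 months to 1 week) in macrophages. The summed S ratio was 1.643 (1 week to control) and 0.6366 (2 months to 1 week) in fibroblasts, 1.403 (1 week to control) and 0.697 (2 months to 1 week) in endothelium, 3.042 (1 week to control) and 0.4566 (2 months to 1 week) in mural cells, and 1.464 (1 week to control) and 0.6858 (2 months to 1 week) in macrophages. With a cut of 5 M genes, the percent of cells past the M cut was 9.52 (1 week) and 1.091 (2 months) in fibroblasts, 0.2362 (control), 9.865 (1 week) and 1.21 (2 months) in endothelium, 14.49 (1 week) in mural cells, and 6.399 (1 week) and 1.119 (2 months) in macrophages. With every cell given equal weight, the S to M ratio was 2.835 (control), 0.5633 (1 week) and 2.33 (2 months) in fibroblasts, 6.635 (control), 0.8978 (1 week) and 2.825 (2 months) in endothelium, 0.6643 (1 week) and 1.574 (2 months) in mural cells, and 1.019 (1 week) and 1.561 (2 months) in macrophages. The summed M ratio was 8.296 (1 week to control), 1.275 (2 months to control) and 0.1537 (2 months to 1 week) in fibroblasts, 0.2193 (2 months to 1 week) in endothelium, 42.78 (1 week to control), 7.954 (2 months to control) and 0.1859 (2 months to 1 week) in mural cells, and 3.659 (1 week to control), 1.654 (2 months to control) and 0.4519 (2 months to 1 week) in macrophages. The summed S ratio was 1.648 (1 week to control) and 0.6356 (2 months to 1 week) in fibroblasts, 1.391 (1 week to control) and 0.6899 (2 months to 1 week) in endothelium, 3.063 (1 week to control) and 0.4405 (2 months to 1 week) in mural cells, and 1.536 (1 week to control) and 0.6924 (2 months to 1 week) in macrophages. With no minimum of UMIs, the number of members 2-fold higher was 32 (2 months to control) in mural cells. With ratios divided by the median of all genes, the summed M ratio was 0.2261 (2 months to 1 week) in endothelium, and 0.454 (2 months to 1 week) in macrophages. The summed S ratio was 0.9581 (2 months to control) and 0.5626 (2 months to 1 week) in endothelium, and 0.5451 (2 months to 1 week) in macrophages. Stricter gates required 2 UMIs, or for macrophages 10 of C1qa with no Pdgfra or Cdh5 UMI. With stricter gates, the S to M ratio was 1.663 (control), 0.4312 (1 week) and 1.302 (2 months) in fibroblasts, 3.735 (control), 0.7433 (1 week) and 2.106 (2 months) in endothelium, 0.5447 (1 week) in mural cells, and 2.064 (control) and 0.9645 (1 week) in macrophages. The number of members 2-fold higher was 7 (2 months to control) in endothelium. The percent of cells past the M cut was 14.65 (1 week) in fibroblasts, and 9.462 (1 week) in macrophages. The summed M ratio was 1.307 (2 months to control) and 0.1725 (2 months to 1 week) in fibroblasts, 7.747 (1 week to control), 1.708 (2 months to control) and 0.2205 (2 months to 1 week) in endothelium, and 3.8 (1 week to control) and 0.6116 (2 months to 1 week) in macrophages. The summed S ratio was 1.542 (1 week to control) and 0.6248 (2 months to 1 week) in endothelium, 4.575 (1 week to control) and 0.3236 (2 months to 1 week) in mural cells, and 0.6061 (2 months to 1 week) in macrophages. Without Mki67, a choice made after seeing the data, the S to M ratio was 4.526 (control), 0.9483 (1 week) and 1.41 (2 months) in macrophages. The percent of cells past the M cut was 2.013 (2 months) in macrophages. The summed M ratio was 8.566 (1 week to control), 3.323 (2 months to control) and 0.3879 (2 months to 1 week) in macrophages.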
